A study of Mus musculus with 21 samples.

Results

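Storage and release of triacylglycerol inside heart cells was followed through 10 genes: the droplet coat genes Plin2, Plin3, Plin4 and Plin5, the synthesis genes Dgat1 and Dgat2, the lipolysis genes Pnpla2, Lipe and G0s2, and Angptl4, whose product is secreted. They were chosen by gene name, and all 10 were found among the 19096 genes of the deposited gene table and passed the filter on low counts. The study measured RNA by sequencing in whole heart tissue of male C57BL/6NJ mice, with 1 library per sample and 21 libraries in all. Mice were 8 to 10 weeks old at the start and were fed for 10 weeks, either with chow or with a high-fat diet (60% of calories from fat). By a further randomization they received an adeno-associated virus that carries renin or a null vector, injected behind the eye, and hearts were taken 6 weeks after injection. The groups are named here chow control (4 libraries, chow and null vector), chow renin (6 libraries, chow and renin virus), high-fat control (6 libraries, high-fat diet and null vector) and high-fat renin (5 libraries, high-fat diet and renin virus). The sample titles give the null vector groups as novirus, whereas the series text speaks of a null vector. No engineered allele is named for any group, and the promoter that drives renin in the virus is not given in the sources used here. Each title counts as a replicate; the series text speaks of mice, and no label says that animals were pooled or that samples were repeats of 1 animal, so p-values measure the spread between these samples.

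A lipid droplet is a core of neutral lipid under a coat of proteins, many of them perilipins. DGAT1 and DGAT2 add the last acyl chain that makes triacylglycerol, ATGL (the Pnpla2 product) removes the first acyl chain when it is broken down, and hormone-sensitive lipase (the Lipe product) acts mainly on the diacylglycerol that is left. In oxidative muscle such as the heart, perilipin 5 sits between droplets and mitochondria and restrains lipolysis, G0S2 binds and inhibits ATGL, and ANGPTL4 inhibits lipoprotein lipase outside the cell. Several of these genes are known targets of the PPAR nuclear receptors, which respond to fatty acids.

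Start-site sequences are shown for a pair of genes that were lower with renin on the high-fat diet, Plin5 and G0s2, and for Plin2, the perilipin closest to a general droplet marker, which passed the test in none of the comparisons. They come from RefSeq on build GRCm38.p6, run 5′ to 3′ on the gene's strand, and stop where GENCODE M21 places the gene's exon. The Plin5 stretch is chr17:56117597-56117798, that of G0s2 is chr1:193273218-193273438 and that of Plin2 is chr4:86670061-86670309, all on the minus strand. Capitals mark AGGTCA on either strand, the core motif of many nuclear receptors.
Plin5: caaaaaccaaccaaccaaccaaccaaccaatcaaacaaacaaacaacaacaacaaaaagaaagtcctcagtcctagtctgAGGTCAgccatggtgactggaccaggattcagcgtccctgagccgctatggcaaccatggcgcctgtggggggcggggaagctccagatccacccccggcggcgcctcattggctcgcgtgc
G0s2: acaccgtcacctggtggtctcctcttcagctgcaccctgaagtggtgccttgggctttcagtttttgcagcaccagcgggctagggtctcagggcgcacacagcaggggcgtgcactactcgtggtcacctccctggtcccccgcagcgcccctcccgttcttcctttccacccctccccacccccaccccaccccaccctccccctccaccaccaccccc
Plin2: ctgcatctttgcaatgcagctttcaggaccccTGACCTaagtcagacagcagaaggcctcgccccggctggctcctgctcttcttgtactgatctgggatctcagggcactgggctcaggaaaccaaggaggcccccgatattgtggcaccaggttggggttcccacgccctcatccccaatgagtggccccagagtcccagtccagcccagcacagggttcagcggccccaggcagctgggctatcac
The match lies 170 bases before the RefSeq start in Plin5 and 218 bases before it in Plin2, and the stretch for G0s2 has none. Of 32841 windows of 250 bases before a RefSeq start, 14.0% held AGGTCA on either strand, so a match is common. The more upstream of the 2 Lipe windows in the table held the E-box CACGTG, which 6.02% of windows hold, and is not printed because it lies in an exon. No window of G0s2, Pnpla2, Plin3 or Plin4 held either motif, and 7 of the 10 genes had an entry in the table used. Dgat1, Dgat2 and Angptl4 had none.

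Library totals were 18.6 to 21.2 M (mega) estimated reads in chow control, below the 22.6 to 29 M of the other groups. Heart muscle was the tissue that the markers showed: 7 of 7 cardiomyocyte genes were detected, with a summed level of 41100 to 62900 CPM. CPM are read counts scaled to the TMM-normalized library total, except in the sums of marker lists, which are scaled to the library total itself. Adipocyte genes, which matter for genes of fat storage, were close to 0 in 16 libraries, with Adipoq at no more than 0.232 CPM of the library total. In the other 5 libraries (chow control 3, chow renin 1 and 3, high-fat control 3 and high-fat renin 3) Adipoq reached 0.763 to 2.68 CPM, and the same 5 libraries, which include number 3 of all 4 groups, held atrial transcripts, with a mean log2 CPM of the atrial list of at least 5. Transcripts of the central nervous list summed to 190 to 314 CPM in chow renin and to 42.9 to 83.5 CPM elsewhere. Because the tissue was not separated into cell types, fewer cells of a type and less RNA per cell cannot be told apart.

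Per transcript length, Pnpla2 was the most abundant of the 10 genes, at a mean of 150 TPM (transcript abundance scaled for length and library total) over the 21 libraries, followed by Dgat2 at 137 TPM. Their ranges, 122 to 184 TPM and 101 to 179 TPM, overlapped. Plin5 at 45.1 TPM, Plin2 at 38.6 TPM, Plin3 at 31.7 TPM and G0s2 at 30.7 TPM came next and also overlapped with their neighbours. Lipe at 17.6 TPM, Dgat1 at 10.2 TPM, Plin4 at 7.41 TPM and Angptl4 at 5.59 TPM were the lowest. The scarcest member, Angptl4, was measured from at least 131 estimated reads per library, and it was also the most variable, with a coefficient of variation of 60.8% over all libraries against 6.92% for Dgat1. For Pnpla2 and Angptl4 the abundance rests on transcripts that GENCODE annotates as targets of nonsense-mediated decay. Pnpla2-201 took 56.2% to 59.0% of the gene's TPM by group, and Angptl4-202 took 65.9% to 73.8%. The split of reads between overlapping transcripts is an estimate by the quantifier.

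**Figure D1:**
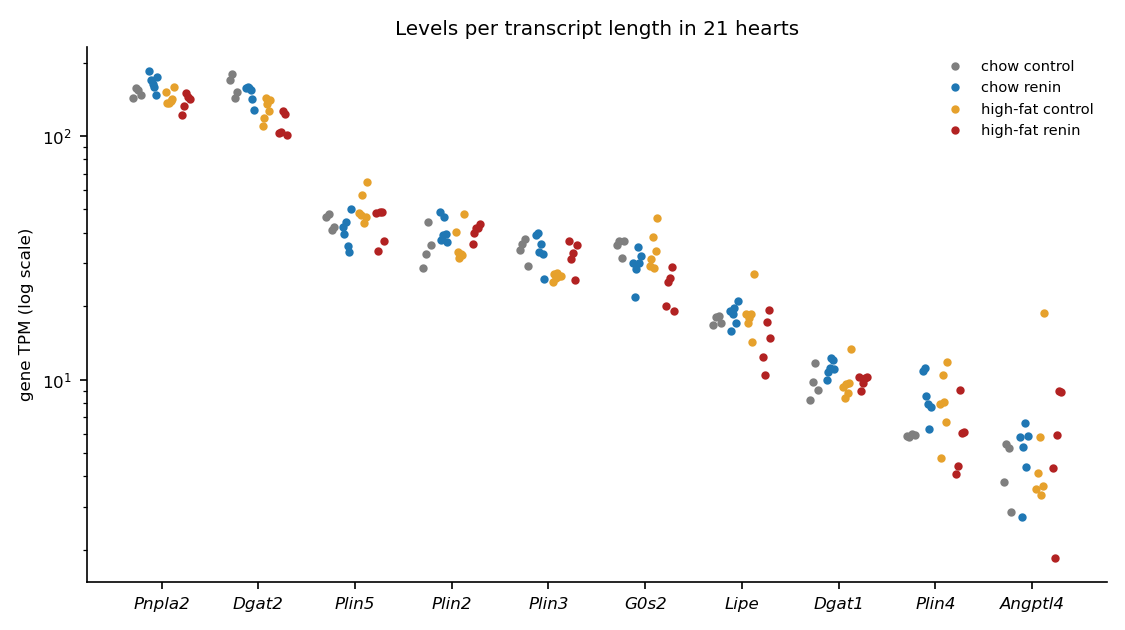
Gene TPM (log axis) of the 10 genes in each of 21 heart libraries, coloured by group and ordered by mean TPM. Pnpla2 and Dgat2 lie above 100 TPM in every library, and Angptl4 has the widest spread, with high-fat control library 6 at the top.

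In the edgeR fit of all 21 libraries by group, renin on the high-fat diet was the comparison in which the largest number of these genes passed. That ranking did not hold under every alternative. Relative to high-fat control, 4 of the 10 genes were lower in high-fat renin and 0 were higher: G0s2, Plin5, Dgat2 and Lipe, in edgeR's quasi-likelihood test at a Benjamini-Hochberg adjusted p under 0.05 over all 15216 genes tested. In the same comparison 11.1% of all tested genes passed in either direction, 6.07% as higher and 5.08% as lower. Leaving out 1 library moved the number of all genes called from 1696 to between 696 and 2394, and that of the 10 genes from 4 to between 1 and 5. The median log2 fold change of the 10 genes was -0.31, against -0.006 for all tested genes, and 8 of the 10 fold changes were negative. The genes are not independent of each other, and these counts describe the list.

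**Figure D2:**
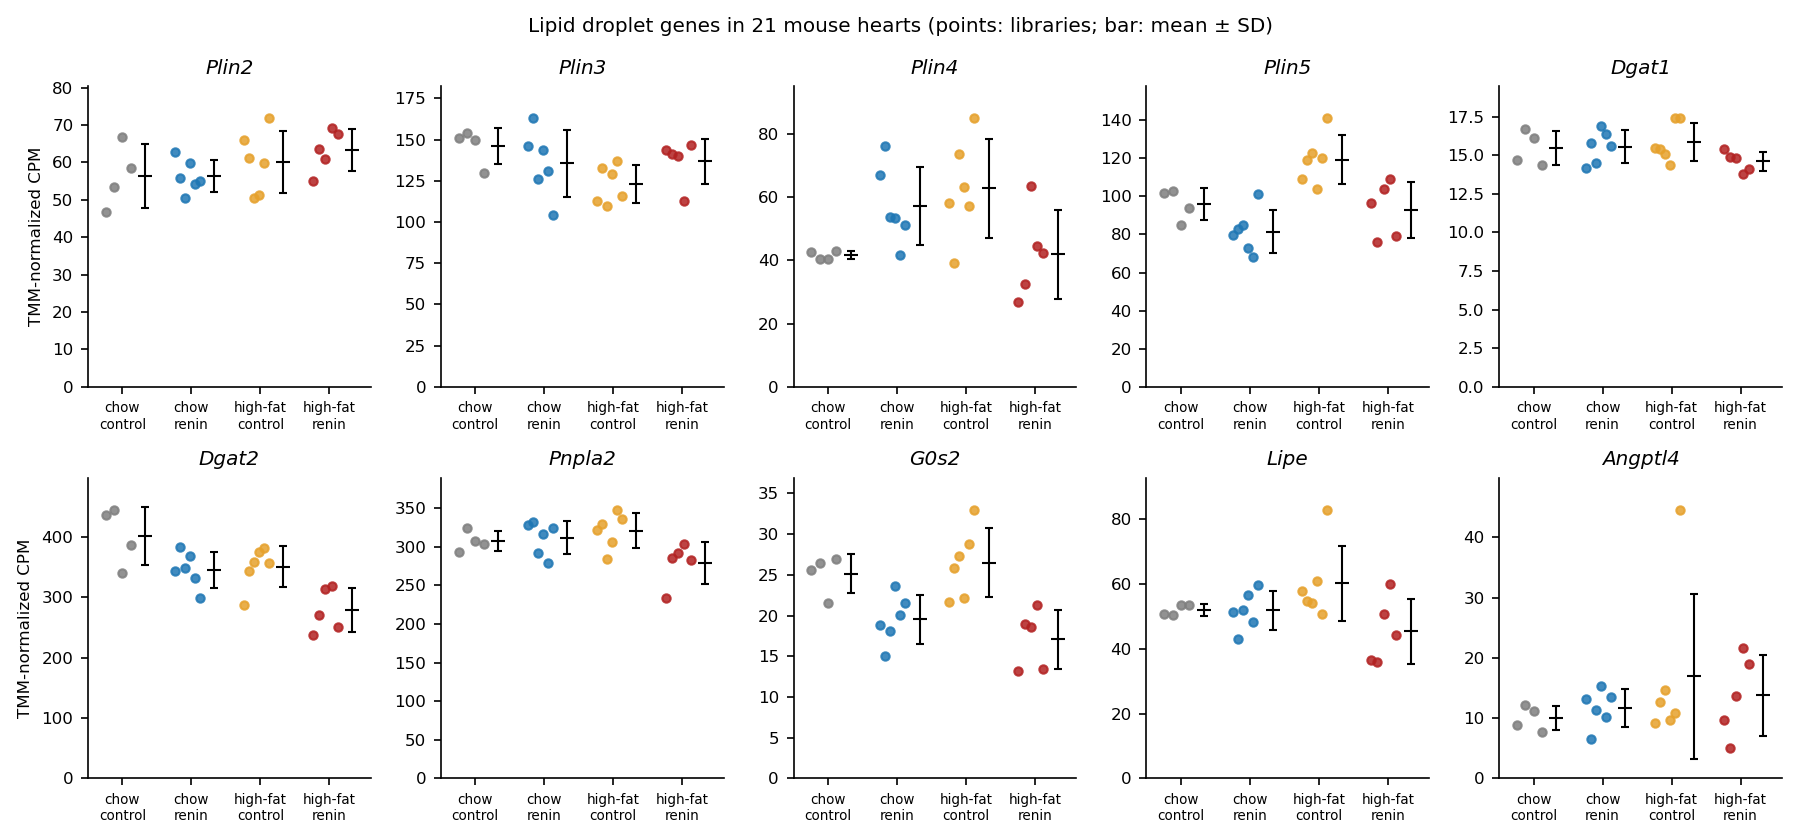
TMM-normalized CPM of each gene in every library, by group; points are libraries and bars are mean ± SD (n = 4, 6, 6 and 5 from left to right). In G0s2 all 5 high-fat renin points lie under all 6 high-fat control points, whereas Plin2 and Dgat1 overlap in all groups.

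G0s2, the inhibitor of ATGL, changed most among the genes that passed. Its level was 13.2, 18.9, 18.6, 21.3 and 13.4 CPM in the 5 high-fat renin libraries. In high-fat control it ran from 21.7 to 33 CPM with a median of 26.5 CPM, so the groups did not overlap. This is a level lower by 35.4%, or -0.63 as log2 fold change (SE 0.13, edgeR adjusted p = 0.00509). Leaving out any 1 library kept the call, with an adjusted p of 0.00121 to 0.0216. The call was lost in a fit with a clock score, described below (adjusted p = 0.726). Chow control held 25.6, 26.4, 21.6 and 27.0 CPM, and chow renin ran from 15.0 to 23.6 CPM with a median of 19.5 CPM. The difference on chow, -0.36 (SE 0.14, adjusted p = 0.0935), did not pass, and the interaction of renin with diet was -0.27 (SE 0.19, adjusted p = 0.458). G0s2 lies inside the span of Lamb3, a laminin gene on the opposite strand, with no shared exon base. Lamb3, named here after its values were seen, had a log2 fold change of -0.93 (SE 0.23, adjusted p = 0.0126) in the same comparison.

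Pnpla2, the gene of ATGL itself, was at 233, 285, 292, 303 and 283 CPM in high-fat renin and at 284 to 348 CPM, median 325, in high-fat control. The groups overlapped, and the log2 fold change of -0.20 (SE 0.07) had an edgeR adjusted p of 0.0555. It passed in DESeq2 (0.0228), with a mean of at least 20 CPM (0.0288), with counts thinned to the smallest library total (0.0413), with upper-quartile factors (0.0429) and without the libraries with atrial transcripts (0.0460), at -0.20 to -0.26. When only protein-coding transcripts were counted the adjusted p was 0.288. Over all alternatives it rose to as much as 0.884, and with 1 library left out it ran from 0.0296 to 0.179. As a description with no test, the ratio of G0s2 to Pnpla2 TPM was 0.173 ± 0.0258 (SD, n = 5) in high-fat renin, against 0.238 ± 0.0395 (n = 6) for high-fat control. On chow the ratio was 0.236 ± 0.0214 (n = 4) without renin and 0.179 ± 0.0318 (n = 6) with it. The mean ratio was lower with renin on both diets, and the values of the groups with and without renin overlapped.

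Lipe, which codes for hormone-sensitive lipase, was at 36.7, 35.8, 50.7, 59.9 and 44.2 CPM in high-fat renin. High-fat control ran from 50.8 to 83.0 CPM with a median of 56.3 CPM, and 4 of 5 high-fat renin libraries lay under all of them. The difference was -0.41 on the log2 scale (SE 0.13), and its edgeR adjusted p of 0.0445 was close to the threshold. The call was lost without any 1 of 10 libraries, at an adjusted p of 0.0503 to 0.133: chow control 1, 2, 3 and 4, chow renin 4, high-fat control 4 and 6, and high-fat renin 1, 2 and 5. Without high-fat control library 6, which held the highest Lipe level, it was -0.29 (adjusted p = 0.0996), and without high-fat renin library 4 it was -0.53 (adjusted p = 0.00569). Without the 5 libraries with atrial transcripts, an alternative added after the data were seen, the value was -0.48 with an adjusted p of 0.0622. The Lipe call was also lost in limma on TPM (0.110), in the fit of the compared groups alone (0.135) and without a filter on low counts (0.0697). It was lost as well with a score of the central nervous list in the fit (0.0767) and with a clock score, described below (0.920). Lipe shares 918 exon bases with the antisense gene 4732471J01Rik, and it is not given in the sources used here whether the counting used strand.

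Plin5, the coat protein of oxidative tissue, was at 96.6, 75.8, 104, 109 and 79.1 CPM in high-fat renin. In high-fat control it ran from 104 to 141 CPM with a median of 120 CPM, and 4 of 5 high-fat renin libraries lay under all of them. The difference was -0.36 on the log2 scale (SE 0.10), with an edgeR adjusted p of 0.0286. The adjusted p was 0.0671 without high-fat control library 6, and 0.0561, 0.0928 and 0.0949 without high-fat renin libraries 1, 2 and 5. It was 0.192 in limma on TPM, 0.0604 in the fit of the compared groups alone, and 0.749 with a clock score, described below. It was 0.0935 when high-fat control library 6 was left out with the 5 libraries with atrial transcripts. Chow control held 102, 103, 84.7 and 93.7 CPM, so all 6 high-fat control libraries were above all chow control libraries. That difference of 0.32 (SE 0.11) had an adjusted p of 0.292. Chow renin ran from 67.9 to 101 CPM with a median of 81.3 CPM, the lowest of the 4 medians.

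Dgat2, which makes triacylglycerol, was the gene lower in high-fat renin than in each of the other groups. Its level was 238, 271, 313, 319 and 250 CPM there. Chow control held 436, 445, 341 and 386 CPM, chow renin ran from 298 to 383 CPM (median 346), and high-fat control ran from 287 to 382 CPM (median 358). All 5 high-fat renin libraries were below all chow control libraries, and 3 of 5 were below all libraries of either of the other groups. Against high-fat control it differed by -0.33 on the log2 scale (SE 0.09) at an edgeR adjusted p of 0.0199, which became 0.0769, 0.0515 and 0.0690 without high-fat renin libraries 1, 2 and 5. It was 0.115 in limma on TPM, 0.0625 in the fit of the compared groups alone and 0.892 with a clock score, described below. Dgat1, which codes for an unrelated enzyme of the same reaction, was at 13.8 to 15.4 CPM in high-fat renin and 14.4 to 17.4 CPM in high-fat control, with a log2 fold change of -0.12 (95% interval -0.25 to 0.01, adjusted p = 0.267). The ratio of Dgat2 to Dgat1 TPM, given with no test, was 17 ± 3.58 (SD, n = 4) in chow control and 11.3 ± 1.35 (n = 5) in high-fat renin, and the other groups lay between, at 13.5 ± 1.66 (chow renin, n = 6) and 13.3 ± 1.88 (high-fat control, n = 6).

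The other coat genes did not pass in this comparison. Plin4, a large perilipin of muscle and fat, was at 26.7, 32.5, 63.6, 44.4 and 42.4 CPM in high-fat renin and 39.2 to 84.9 CPM (median 60.7) in high-fat control, a difference of -0.58 on the log2 scale (SE 0.21) with an edgeR adjusted p of 0.0752. The adjusted p of Plin4 was 0.0179 in DESeq2, 0.0450 with a mean of at least 20 CPM and 0.0457 without the libraries with atrial transcripts. Over all alternatives it ran from 0.0134 to 0.955, and with 1 library left out it rose to as much as 0.202. Plin2, which coats droplets in most cells, was at 55.1 to 69.1 CPM and 50.6 to 71.8 CPM in the same groups, and its log2 fold change of 0.07 had a 95% interval of -0.11 to 0.26. Plin3, found on small droplets and in the cytosol, had a log2 fold change of 0.16 with an interval of -0.02 to 0.34. Angptl4 was at 9.65, 5.06, 13.6, 21.6 and 19 CPM in high-fat renin and at 9.20 to 44.6 CPM (median 11.8) in high-fat control. Its log2 fold change of -0.29 had an interval of -1.10 to 0.51, and turned to 0.27 (adjusted p = 0.630) without high-fat control library 6, which stood at 44.6 CPM. That library also held the highest level of its group for Plin2, Plin4, Plin5, G0s2 and Lipe.

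**Figure D3:**
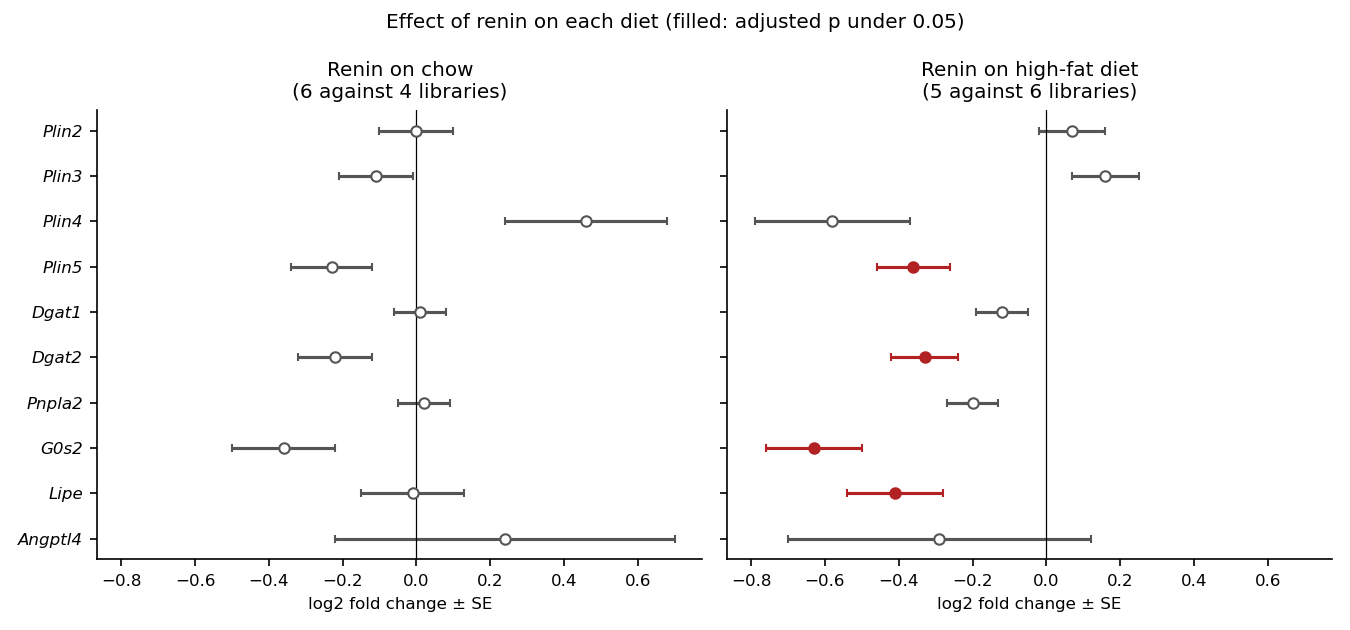
Log2 fold change ± SE of each gene for renin on chow (left) and on the high-fat diet (right); filled points have an edgeR adjusted p under 0.05. The 4 filled points, G0s2, Lipe, Plin5 and Dgat2, are all on the right, and Plin4 lies to the right of 0 on chow and to the left of 0 on the high-fat diet.

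Renin and the high-fat diet together, compared with chow control, left 2 of the 10 genes lower and 0 higher, where 8.29% of all genes passed (4.05% as higher and 4.25% as lower). These were Dgat2, the acyltransferase, at -0.53 on the log2 scale (SE 0.10, adjusted p = 0.00232 in edgeR) and G0s2, the ATGL inhibitor, at -0.56 (SE 0.15, adjusted p = 0.0225). In both genes all 5 high-fat renin libraries lay below all 4 chow control libraries. With counts thinned to the smallest library total, which levels the lower depth of chow control, both calls held, at -0.54 for Dgat2 (adjusted p = 0.00219) and -0.57 for G0s2 (adjusted p = 0.0216). The Dgat2 call held in all 21 fits with 1 library left out, at an adjusted p of 0.000872 to 0.0149. That of G0s2 was lost in 5 of them, at 0.0534, 0.0602 and 0.0758 without chow control 1, 2 and 4, and at 0.0541 and 0.0643 without high-fat renin 1 and 5. In a fit with the score (mean log2 CPM) of the central nervous list as a covariate the adjusted p was 0.000742 for Dgat2 and 0.0577 for G0s2. In a fit with a clock score it was 0.807 and 0.926. The score is the mean log2 CPM of Dbp, Per1, Per2, Per3, Nr1d1, Nr1d2, Tef, Hlf and Ciart minus that of Arntl, Npas2, Clock and Nfil3. It was at most 3.38 in high-fat renin and at least 3.56 in chow control, so this fit cannot tell the score from the treatments. Plin5 was at -0.04 in this comparison (interval -0.27 to 0.18), Plin2 at 0.17 (-0.04 to 0.37) and Lipe at -0.20 (-0.47 to 0.08). In the authors' deposited table, whose high-fat and virus comparison names no reference group, Dgat2 had a log2 fold change of -0.473 with an adjusted p of 5.66e-05. G0s2 in the authors' deposited table was at -0.402 with an adjusted p of 0.00739. The other 8 genes in the authors' deposited table had an adjusted p of at least 0.346.

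Renin on chow alone gave 0 calls among the 10 genes, against 13.5% of all genes (10.1% higher and 3.36% lower), and 0 calls in DESeq2. At an unadjusted p under 0.05 were 3 of the 10, near the 25.1% of all genes. The 3 were G0s2 at -0.36 on the log2 scale (SE 0.14, adjusted p = 0.0935 in edgeR), Plin5 at -0.23 (SE 0.11, adjusted p = 0.188) and Dgat2 at -0.22 (SE 0.10, adjusted p = 0.142), lower as on the high-fat diet. Lipe, by contrast, was at -0.01 (95% interval -0.27 to 0.26) and Pnpla2 at 0.02 (-0.12 to 0.16) on chow. Plin4 was at 0.46 (SE 0.22, adjusted p = 0.206), with 5 of 6 chow renin libraries above all chow control libraries. Fitting the 2 chow groups alone called Plin4 as higher (adjusted p = 0.0394) and G0s2 as lower (adjusted p = 0.0454), where 2499 genes were called in place of 2048. Leaving out chow control library 3 called Dgat2, at -0.29 (adjusted p = 0.0497). The high-fat diet without renin gave 0 calls, where 0.0657% of all genes passed (0.0131% higher and 0.0526% lower). Of the 10 genes 4 had an unadjusted p under 0.05, as did 1668 of all 15216 genes, and DESeq2 also called 0. Of these, Plin5 was higher in 6 of 6 libraries, Plin4 was at 0.59 (SE 0.22, adjusted p = 0.339), Plin3 at -0.25 (SE 0.10, adjusted p = 0.355) and Dgat2 at -0.20 (SE 0.10, adjusted p = 0.453).

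With renin in both groups, the high-fat diet gave 1 call, Dgat2 at -0.31 on the log2 scale (SE 0.09, adjusted p = 0.0140 in edgeR), where 22.6% of all genes passed (9.8% as higher and 12.8% as lower). The share of genes passing was thus above that of the list. Pnpla2 was at -0.16 (SE 0.07, adjusted p = 0.0927) and Plin4 at -0.45 (SE 0.21, adjusted p = 0.133). Chow renin is the group with the transcripts of the central nervous list, whose part in this result was not tested apart from a fit with the score of that list as a covariate. In that fit Dgat2 was at 0.07 (adjusted p = 0.999), and with the clock score, at -0.23 (adjusted p = 0.0676). The score and the chow renin group cannot be told apart, since the lowest score there, 3.20, was above the highest elsewhere, 2.26.

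Plin4 was the only one of the 10 genes whose response to renin differed between diets by the interaction test, where 10.4% of all genes passed (3.14% as higher and 7.3% as lower). Its levels were 42.6, 40.5, 40.4 and 42.8 CPM in chow control, and 41.6 to 76.2 CPM (median 53.4) in chow renin. On the high-fat diet they were 39.2 to 84.9 CPM without renin and 26.7 to 63.6 CPM with it, so the median was higher with renin on chow and lower with renin on the high-fat diet. The interaction was -1.04 (SE 0.30, edgeR adjusted p = 0.0326). The call was lost without any 1 of 11 libraries, at an adjusted p of 0.0512 to 0.0628: chow control 1, 2, 3 and 4, chow renin 1 and 2, high-fat control 3 and 6, and high-fat renin 1, 2 and 5. When the fit took the score of the central nervous list as a covariate, the value turned to 0.36 (adjusted p = 1.0), and without a filter on low counts its adjusted p was 0.0595. It was 0.0642 when high-fat control library 6 was left out with the libraries with atrial transcripts. The central nervous score cannot be told apart from the chow renin group, so the fit with that score cannot separate them. Lipe at -0.40 (SE 0.19, adjusted p = 0.203) and Pnpla2 at -0.22 (SE 0.10, adjusted p = 0.172) were negative in the same test and did not pass.

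Averaged over both diets, 3 of the 10 genes were lower with renin and 0 higher, where 20.6% of all genes passed and 8.59% passed as lower. G0s2 was at -0.50 on the log2 scale (SE 0.10, adjusted p = 0.000837 in edgeR), Plin5 at -0.30 (SE 0.08, adjusted p = 0.00719) and Dgat2 at -0.28 (SE 0.07, adjusted p = 0.00396), and none of the 3 calls was lost with 1 library left out. With the clock score as a covariate none of the 3 passed (adjusted p of 0.438 to 0.878), with the central nervous score only Dgat2 did (0.0374), and in limma on TPM only G0s2 did (0.00544). The clock score moved with renin and the central nervous score with the chow renin group, so these fits cannot separate them. This average uses the same libraries as the comparisons above. Averaged over both vectors, Plin5 was higher on the high-fat diet by a log2 fold change of 0.25 (SE 0.08, adjusted p = 0.0322) and Dgat2 was lower, at -0.26 (SE 0.07, adjusted p = 0.0121), where 12.3% of all genes passed, 4.5% as higher and 7.78% as lower. The Plin5 call was lost without any 1 of 10 libraries, at an adjusted p of 0.0511 to 0.0718: chow control 3 and 4, chow renin 1, 3, 4 and 5, high-fat control 6, and high-fat renin 1, 3 and 4. Without the 5 libraries with atrial transcripts it was 0.18 (adjusted p = 0.248), in limma on TPM 0.14 (adjusted p = 0.308), with upper-quartile factors 0.23 (adjusted p = 0.0563) and with a mean of at least 20 CPM 0.22 (adjusted p = 0.0704). With either score as a covariate neither the Plin5 call nor the Dgat2 call held. Plin5 and Dgat2, a droplet coat and a maker of the lipid in its core, were thus lower with renin on average and opposite to each other with diet.

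Other measured properties of the libraries moved with these results. The summed level of the 7 cardiomyocyte genes was 41100 to 49900 CPM in high-fat renin, below all other libraries, the lowest of which was at 51000 CPM. The 4 fibroblast genes summed to 500 to 710 CPM in high-fat renin and to 332 to 780 CPM in high-fat control, with a score (mean log2 CPM) of 6.67 ± 0.153 (SD, n = 5) against 6.31 ± 0.463 (n = 6). Mitochondrially encoded genes took 33.5% ± 2.27 of reads in high-fat renin and 36% ± 1.78 in high-fat control, and 32.6% to 32.9% on average in the chow groups. Without those genes in the counts G0s2, Plin5, Dgat2 and Lipe were again called for renin on the high-fat diet. The clock score was lower in the groups with renin: 2.97 ± 0.452 (SD, n = 5) in high-fat renin against 3.55 ± 0.121 (n = 6) for high-fat control, and 3.21 ± 0.109 (n = 6) for chow renin against 3.82 ± 0.175 (n = 4) for chow control. High-fat renin libraries 1, 2 and 5, without which several calls were lost, had scores of 2.22, 2.99 and 2.96, below libraries 3 and 4 of that group at 3.38 and 3.27. With the clock score as a covariate, 0 of the 10 genes and 0 of all tested genes passed for renin on the high-fat diet. G0s2 was then at -0.37 (adjusted p = 0.726), Plin5 at -0.31 (adjusted p = 0.749), Lipe at -0.15 (adjusted p = 0.920) and Dgat2 at -0.12 (adjusted p = 0.892). The clock score and renin moved together, so a fit with this score cannot tell them apart. On chow the scores ran from 3.10 to 3.36 with renin and from 3.56 to 3.92 without it. On the high-fat diet they ran from 2.22 to 3.38 with renin and from 3.37 to 3.68 without it. The part of collection time or of cell makeup in these results was not tested.

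**Figure D4:**
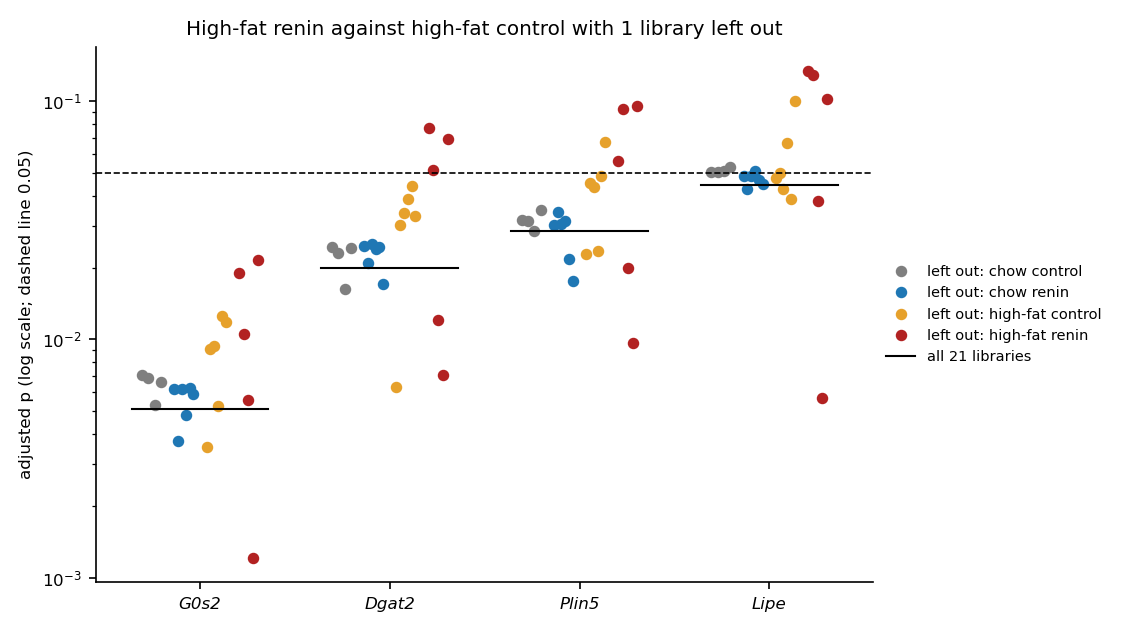
Adjusted p (log axis) of the 4 genes called for renin on the high-fat diet, in fits that each leave out 1 library, coloured by that library's group; the black line is the value with all 21 libraries and the dashed line is 0.05. All G0s2 points lie under 0.05, and the points above it for Dgat2 are high-fat renin libraries.

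Related genes of droplet and triacylglycerol handling, 35 of 37 of which were tested, gave 3 lower and 0 higher for renin on the high-fat diet, near the 11.1% of all genes, with a median log2 fold change of -0.01. Fitm1 and Fitm2, whose proteins help droplets bud from the endoplasmic reticulum, were at -0.51 (SE 0.10, edgeR adjusted p = 0.00290) and -0.33 (SE 0.08, adjusted p = 0.0124), the latter at 0.0525 without high-fat renin library 1. Ces1d, a carboxylesterase that hydrolyses triacylglycerol, was at -1.29 (SE 0.31, adjusted p = 0.0137), with 15.3 to 73.3 CPM in high-fat renin against 75.1 to 129 CPM in high-fat control. Abhd5, which codes for the activator of ATGL, was at 0.10 (SE 0.07, adjusted p = 0.411). None of the 12 tested genes of glycerolipid synthesis passed in this comparison, Gpam at 0.26 (SE 0.10, adjusted p = 0.0856) coming closest, and none of the 6 tested genes of lipoprotein triglyceride uptake did. Mogat1 and Angptl8 had too few reads to be tested.

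In other comparisons the related genes moved in both directions. Renin on chow raised Acsl3, an acyl-CoA synthetase of droplets, by 0.74 (SE 0.10, edgeR adjusted p = 6.8e-06) and Hilpda, an inhibitor of ATGL, by 0.73 (SE 0.18, adjusted p = 0.00542), and lowered Lmf1 and Abhd5, so 2 were higher and 2 lower (13.5% of all genes passed). These calls move with the transcripts of the central nervous list in chow renin, at 190 to 314 CPM. With the score of that list in the fit none of the 4 passed, Acsl3 at 0.20 (adjusted p = 0.906) and Hilpda at 0.97 (adjusted p = 0.655), and the genes called in all dropped from 2048 to 28. The score and the chow renin group cannot be told apart, so this fit cannot separate the 2. The Abhd5 call was also lost without any 1 of 10 libraries, at an adjusted p of 0.0508 to 0.160: chow control 1, 2 and 4, chow renin 1 to 5, high-fat control 3 and high-fat renin 1. Hilpda and G0s2, both inhibitors of ATGL, thus lay on opposite sides of 0 with renin on chow, G0s2 without passing. The high-fat diet without renin gave 0 calls of 35. Both treatments together against chow control gave 1 higher, Cidea at 0.54 (SE 0.10, adjusted p = 0.00266), and 2 lower, Fitm1 at -0.40 (SE 0.11, adjusted p = 0.0297) and Lpl at -0.38 (SE 0.11, adjusted p = 0.0334), where 8.29% of all genes passed. Both lower calls were lost without chow control 1, 2 or 4 or high-fat renin 1 or 5, that of Fitm1 also without high-fat renin 2 and that of Lpl without high-fat renin 3 or 4, at adjusted p up to 0.0932 and 0.111. Cidea, whose protein enlarges droplets, was at 26.9 to 32.0 CPM in high-fat renin and 18.1 to 21.9 CPM in chow control. High-fat renin against chow renin gave 4 higher and 3 lower (22.6% of all genes passed), led by Acsl3 at -0.70 (SE 0.09, adjusted p = 3.55e-06). The interaction gave 1 higher and 1 lower (10.4% of all genes), the diet average gave 4 higher and 2 lower (12.3%), and the renin average gave 3 higher and 5 lower (20.6%). These comparisons also use chow renin. With the central nervous score in the fit, all genes called fell from 3440 to 39 for high-fat renin against chow renin and from 1589 to 21 for the interaction. They fell from 1869 to 97 for the diet average and from 3136 to 212 for the renin average.

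Genes of fatty acid oxidation that are known PPAR targets, with their regulators, gave 0 higher and 1 lower of 19 tested for renin on the high-fat diet, below the 11.1% of all genes. The gene was Rxra, the partner receptor of the PPARs, at -0.31 (SE 0.08, edgeR adjusted p = 0.0131, and 0.0527 without high-fat renin library 1). The median of the 19 was -0.19 and 15 of them were negative, beside -0.006 for all genes. For the diet average 4 were higher and 1 lower, where 12.3% of all genes passed. They included Fabp3, the fatty acid binding protein of heart, at 0.40 (SE 0.06, adjusted p = 8.9e-05), the carnitine carrier Slc25a20 at 0.34 (SE 0.07, adjusted p = 0.00199), Cpt1b, which makes acylcarnitines at the mitochondrion, at 0.20 (SE 0.05, adjusted p = 0.0175, and 0.0504 to 0.0556 without chow control 1 or 2 or chow renin 1 or 3) and, lower, Ehhadh at -0.43 (SE 0.10, adjusted p = 0.00500). Each of these named calls was lost under some alternative, at an adjusted p of up to 0.0774 for Fabp3, 0.34 for Slc25a20, 0.539 for Cpt1b and 0.443 for Ehhadh. Among the 10 droplet genes, Plin5 was the gene higher with diet in the same average, and Plin2 (0.13, SE 0.07, adjusted p = 0.239) and Angptl4 (0.51, SE 0.31, adjusted p = 0.325) did not pass. Counts in the other comparisons, with the share of all genes that passed, were 1 higher and 1 lower for both treatments together (8.29%), 0 and 0 for renin on chow (13.5%), for the diet without renin (0.0657%) and for the interaction (10.4%), 2 higher and 1 lower for high-fat renin against chow renin (22.6%), and 0 higher and 3 lower for the renin average (20.6%). Vnn1 and Fgf21 had too few reads to be tested.

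**Figure D5:**
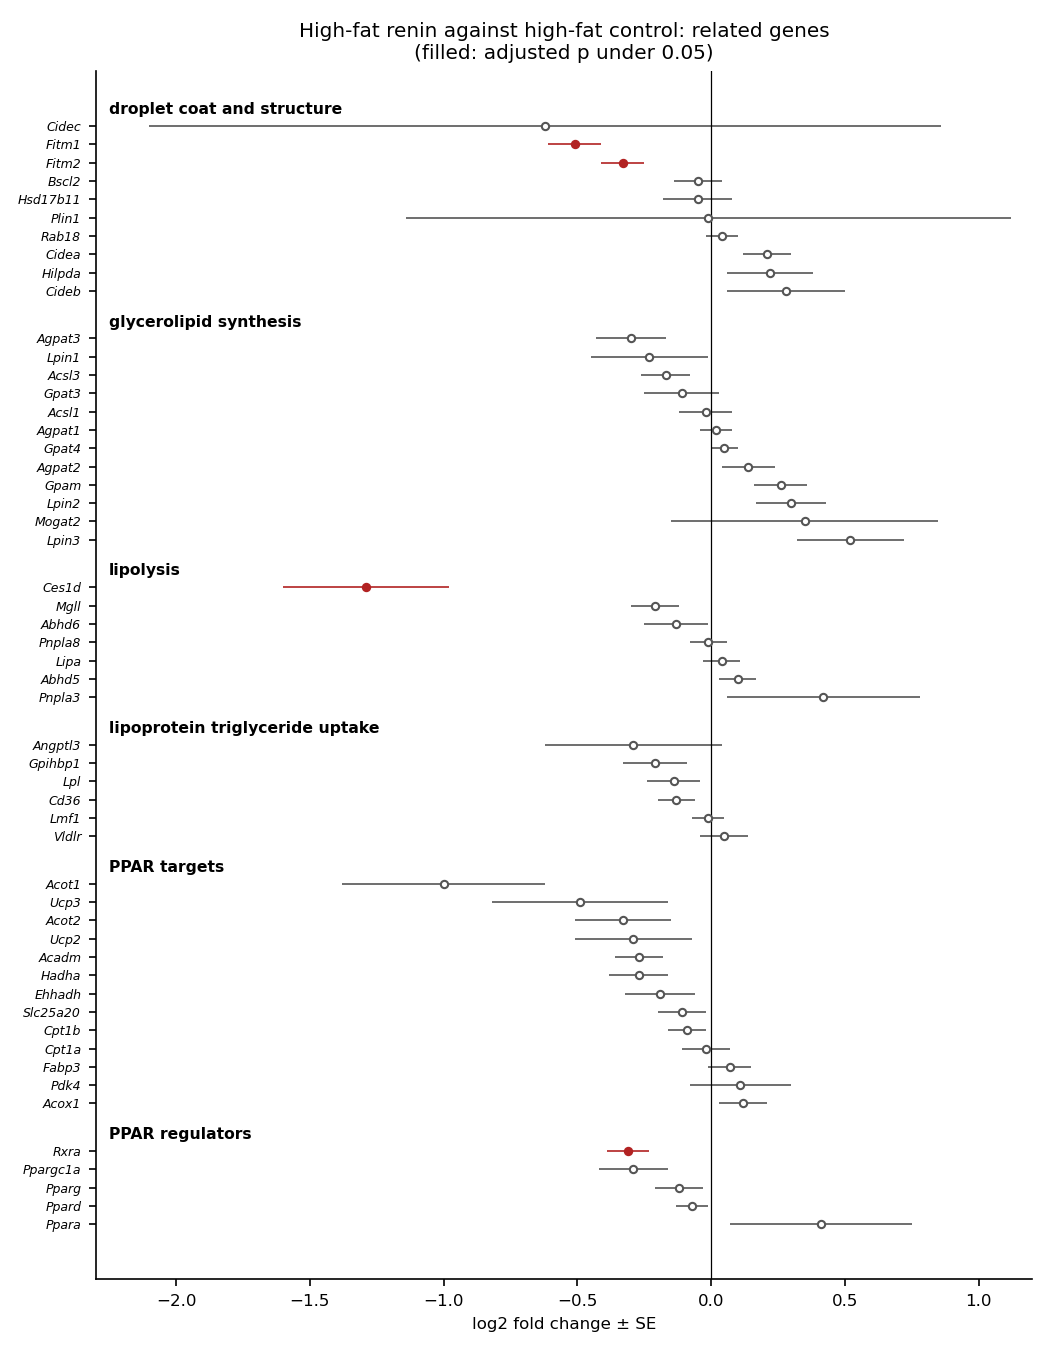
Log2 fold change ± SE of related genes, by list, for high-fat renin against high-fat control; filled points have an edgeR adjusted p under 0.05. The 4 filled points, Fitm1, Fitm2, Ces1d and Rxra, all lie to the left of 0, and most PPAR target genes drawn lie to the left of 0 without passing.

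The genes whose levels ran closest to those of the called members over the 21 libraries were found by the Pearson correlation of log2 CPM, given as a description since the libraries share groups and depth. For Dgat2 they were Slc25a29, Actr3b and Usp2, at r of 0.94, 0.92 and 0.91. For G0s2 they were Usmg5, Macrod1 and Etfb, at 0.92, 0.91 and 0.91. For Plin5 they were Agpat3, St6galnac6 and Zfp628, all at 0.89, of which Agpat3 is a gene of glycerolipid synthesis. For Plin4 they included Arl4a and Max, at 0.86 and 0.81. For Lipe they were Lgals4, Abca7 and Vmn1r-ps144, at 0.89, 0.89 and 0.86, and inside single groups the lowest r of Lipe was -0.18 with Abca7 and -0.11 with Lgals4.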

How the data were processed

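RNA of 21 mouse hearts was sequenced in 4 groups, taken with their replicate numbers from the sample titles. The deposited tables give, per the file headers, estimated counts (expected counts, not normalized) and TPM per transcript and library. Salmon 1.10.2, DESeq2 1.40.2 and the builds GRCm38 and mm10 are named in the submitters' processing notes, without roles. A further deposited table of the authors holds the log2 fold change and adjusted p-value of a comparison of theirs. Its 21 per-sample columns were not used.

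Of 119215 transcripts 98.0% were matched to GENCODE M21. Unmatched ones held 0.854% to 0.925% of reads and were not used. The rounded sum of a gene's estimated counts was its count, and 15216 of 23718 genes passed filterByExpr. Tests used edgeR 4.0.16 (R 4.3.3): TMM factors (0.886 to 1.09), a fit of all 21 libraries by group, robust glmQLFit, the quasi-likelihood F test and Benjamini-Hochberg adjustment over all genes tested, with calls at an adjusted p under 0.05. The SE is the absolute log2 fold change over the square root of F. The 95% intervals are built from it with the multiplier of the normal distribution, which makes them narrower than the F test implies. Alternatives were DESeq2 1.42.0, limma 3.58.1 on log2 of TPM plus 1, other scalings, filters and library sets, covariate scores, and each library left out. Data were simulated for high-fat renin against high-fat control with 15043 genes, of which 98 were changed by each of 2 sizes. Of genes changed by 0.5 on the log2 scale 56.1% were called, and 86.7% of those changed by 1. More genes were called in the real comparison, so these shares need not hold there. Figures were drawn in matplotlib 3.10.9.

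The 10 genes, the lists and the tests were chosen with earlier results of these data known. The text gives every member. Of each list it gives counts and at most 6 called genes a comparison, those of smallest adjusted p, and beyond these names Abhd5, Gpam and Lamb3 after their values were seen. Likeness lists the 3 tested genes of highest r for each called member, leaving out names that begin with Gm and digits or end in Rik. A pair of genes that these rules name is not reported here.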

Additional observations from a re-analysis of the deposited data

Results flagged for a closer look

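In 40 sets of values (10 genes in 4 groups), 5 held a library that stood apart from the rest of its group by Dixon's criterion, which chance gives in about 1 of 20 sets. High-fat control library 6 stood apart at the high end for Lipe, at 83.0 CPM, and for Angptl4, at 44.6 CPM where the other 5 libraries lay between 9.20 and 14.7 CPM. High-fat renin library 1 stood apart at the low end for Pnpla2, at 233 CPM. Plin3 was low in chow control library 4, at 130 CPM, and in high-fat renin library 4, at 113 CPM. No cause of these values was tested.

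Plin4 passed the test for an interaction of renin with diet, at -1.04 on the log2 scale (SE 0.30, edgeR adjusted p = 0.0326). Its renin effect passed on neither diet, at 0.46 on chow (adjusted p = 0.206) and -0.58 on the high-fat diet (adjusted p = 0.0752). The interaction call was lost without any 1 of 11 libraries.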

How the results depend on the processing

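Counts of the 10 genes called moved by at least 1.5 times under these settings (all genes called in brackets for both renin comparisons). With the clock score as a covariate the count was 0 for renin on the high-fat diet (0 genes), both treatments together, high-fat renin against chow renin, the diet average and the renin average, and 1 for renin on chow (1499 genes). With the central nervous score it was 1 for both treatments together and the renin average, and 0 for high-fat renin against chow renin, the interaction and the diet average, and Dgat2 against chow renin turned to 0.07 and the Plin4 interaction to 0.36. Fitting the compared groups alone gave 2 for renin on chow (2499 against 2048 genes) and 1 for renin on the high-fat diet (549 against 1696 genes), and limma on TPM gave 1 for the latter (1700 genes), G0s2 in both, and 2 for high-fat renin against chow renin, 3 for the diet average (Dgat2, Plin3 and Pnpla2, all lower, without Plin5) and 1 for the renin average. With DESeq2 (2176 genes), or a mean of at least 20 CPM (1386 genes), renin on the high-fat diet gave 6 in place of 4, Pnpla2 and Plin4 being added. The 20 CPM filter and upper-quartile factors gave 2 for high-fat renin against chow renin and 1 for the diet average. Without a filter on low counts the interaction gave 0. The diet average gave 1 without the libraries with atrial transcripts, and also when high-fat control library 6 was left out with them, where high-fat renin against chow renin gave 2 and the interaction 0. For the high-fat diet without renin the count was 0 under every setting tried.

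Leaving out 1 library gave 1 to 5 calls for renin on the high-fat diet, 1 to 2 for both treatments together (565 to 1723 of all genes, against 1262), high-fat renin against chow renin and the diet average, 0 to 1 for renin on chow, 0 to 2 for the interaction and 3 to 4 for the renin average. Of 28 pairs of same-numbered libraries 13 had a correlation of deviations over 0.1, with a mean of 0.13 against -0.026 for other pairs, and 7 of 21 libraries correlated best with their own number. Not every pair was over 0.1, so the numbers were not taken to pair the samples. With the replicate number as a block the interaction count was 0 (Plin4 adjusted p = 0.0774), the renin average gave 4 and the counts of the other comparisons did not move. The fit of the compared groups alone was not run for the interaction or the averages, which use all 4 groups. Thinned to the smallest library total, renin on the high-fat diet gave 5 calls, with 1576 genes in all.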
